A study of Homo sapiens with 3 samples.

Results

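The let-7 family with miR-98 was examined in small RNA libraries from MV4-11 cells. Its members were taken by name as the 9 mature 5p strands of the family, which are hsa-let-7a-5p, hsa-let-7b-5p, hsa-let-7c-5p, hsa-let-7d-5p, hsa-let-7e-5p, hsa-let-7f-5p, hsa-let-7g-5p, hsa-let-7i-5p and hsa-miR-98-5p, out of 783 mature names listed. They filled 12 of 851 rows of the mature table, because let-7a-5p is encoded by 3 hairpins and let-7f-5p by 2. Their 12 hairpins, of 661 listed, and 9 listed 3p strands were used for comparison. MV4-11 is a human acute myeloid leukemia line with an internal tandem duplication in FLT3 and the MLL-AF4 fusion. All cells carried an empty-vector (EV) lentiviral CRISPR-Cas9 construct, were given the genotype WT in the labels, and had grown for 2 weeks before total RNA was taken. There were 3 replicate cultures in 1 group, with no other treatment or genotype to compare, and whether the cultures were infected separately is not stated. Comparisons were therefore made between members, between the strands of a hairpin, between genomic copies and between libraries.

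let-7 was found as a regulator of developmental timing in the worm, and in mammals its levels rise as cells differentiate. A miRNA guides Argonaute to messenger RNAs mainly through its seed, the bases near its 5′ end, so miRNAs with the same seed share most predicted targets, which for let-7 include HMGA2, RAS genes, MYC and LIN28. LIN28 proteins in turn bind the loop of let-7 precursors and block their processing, so that the mature level need not follow transcription. The family is widely described as growth-restraining in cancer.

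The libraries held 12694823, 10991953 and 11682129 mature counts (replicates 1 to 3). All 6 white blood cell markers checked were listed, and summed to 3.11% to 5.58% of these counts, led by miR-155-5p. Of 10 markers of other tissues 9 were listed, none of them at 0 in any library, and together they made up 0.0865% to 0.208%. miR-150-5p, a marker of lymphocytes, was low, at 0.551 to 1.80 counts per 1000000 mature counts (CPM), and miR-124-3p, a neuronal miRNA, reached 405 to 1632. The part of the latter in any result was not tested. Replicate 1 stood apart, since the median miRNA was higher on the log2 scale by 0.48 in replicate 2 and by 0.57 in replicate 3. miR-21-5p alone made up 38.5%, 26.8% and 20.2% of the counts in replicates 1, 2 and 3.

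The members are shown here because the whole family rests on 1 shared seed. RefSeq sequences (GRCh38.p14) were found for all 9, each of 22 bases, written 5′ to 3′ with the seed (bases 2 to 8) in capitals.
let-7a-5p: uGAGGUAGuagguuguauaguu
let-7b-5p: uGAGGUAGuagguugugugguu
let-7c-5p: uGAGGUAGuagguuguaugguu
let-7d-5p: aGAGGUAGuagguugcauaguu
let-7e-5p: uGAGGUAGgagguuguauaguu
let-7f-5p: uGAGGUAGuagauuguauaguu
let-7g-5p: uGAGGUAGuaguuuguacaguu
let-7i-5p: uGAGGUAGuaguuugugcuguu
miR-98-5p: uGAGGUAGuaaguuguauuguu

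All 9 held the seed GAGGUAG, and their differences lay at base 1 or from base 9 on. Positions are counted from 1 at the 5′ end, with the base of let-7a-5p first. let-7f-5p differed from let-7a-5p by G12A alone, let-7e-5p by U9G alone and let-7c-5p by A19G alone. let-7b-5p carried A17G and A19G, so it was 1 base from let-7c-5p. let-7d-5p carried U1A and U16C, and it was the only member that did not begin with U. let-7g-5p carried G12U and U18C, let-7i-5p carried G12U, A17G, U18C and A19U, and miR-98-5p carried G11A and A19U. Among the 36 pairs of members, 4 differed at a single base, and the most distant pair, let-7d-5p and let-7i-5p, differed at 6. A read with a single error can therefore move from let-7a-5p to 3 other members, which bears on the lowest levels given below.

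The family made up 12.2%, 10.5% and 12.4% of mature counts (replicates 1 to 3), and the Wilson 95% limits were 12.16% and 12.20% for the first, 10.45% and 10.49% for the second, and 12.39% and 12.43% for the last. These intervals cover counting error only, and the spread between libraries, 11.7% ± 1.06 (SD, n = 3), was far larger. When listed miRNAs were grouped by seed, GAGGUAG ranked second in each of the 3 libraries, behind the seed AGCUUAU of miR-21-5p and miR-590-5p. The next by mean was AAAGUGC, shared by miR-17-5p, miR-20a-5p and 4 others, with 1.93%, 7.83% and 10.7%, which put it at rank 9 in replicate 1 and rank 3 in the others. A sequence was found for 679 of the 783 names, which held 93.2% of counts, and the 104 others were not grouped. The 5p strands of miR-30a to miR-30e, some of them ungrouped, reached at most 6.31% in a library. The sequence table held 2 other human miRNAs with the let-7 seed, miR-4458 and miR-4500, and neither had a row here.

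Within the family, let-7f, let-7i and let-7g carried most of the reads. Together these 3 made up 88.4%, 84.5% and 83.3% of the family's 5p counts in replicates 1, 2 and 3, or 85.4% ± 2.68 (SD, n = 3). let-7a followed, miR-98, let-7d and let-7b were each at a few percent or less, and let-7c and let-7e together made up 0.140% ± 0.0167 (SD, n = 3). All members are of 1 length, so CPM values can be set side by side, although ligation of adapters depends on sequence and the values are not molar.

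let-7f-5p, from hairpins on chromosomes 9 and X, had 46764, 36641 and 43632 CPM in replicates 1, 2 and 3. That was a mean of 42346 ± 5182 (SD, n = 3) and rank 3 of 783 miRNAs. let-7i-5p had 35146, 28116 and 31014 CPM, or 31426 ± 3533 (SD, n = 3), and ranked 8. let-7g-5p had 25813, 23717 and 28746, or 26092 ± 2526 (SD, n = 3), and ranked 10. Replicate 2 was the lowest library for these 3 members. let-7f-5p exceeded let-7i-5p by 0.43 ± 0.06 on the log2 scale within libraries (mean and SD, n = 3), and let-7i-5p exceeded let-7g-5p by 0.27 ± 0.17, each in 3 of 3 libraries and by more than the SD. The place of let-7f-5p rests on summing its 2 rows, since with their mean it was below let-7i-5p by a log2 value of -0.57, and below let-7g-5p too.

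let-7a-5p, the member conserved without change from worm to human, had 10073, 10634 and 13629 CPM, or 11445 ± 1912 (SD, n = 3), and ranked 19. let-7g-5p was above it in each library by 1.20 ± 0.14 on the log2 scale (SD, n = 3). let-7a-5p was in turn above let-7d-5p by 2.41 ± 0.27 on the log2 scale (SD, n = 3). let-7d-5p had 1528, 2207 and 2885 CPM, a mean of 2207 ± 678 (SD, n = 3). miR-98-5p had 1573, 2000 and 2497, a mean of 2024 ± 462 (SD, n = 3). The order of let-7d-5p and miR-98-5p was not resolved, because miR-98-5p was the higher in replicate 1 and the lower in the others, with a mean log2 difference of 0.10 ± 0.13 (SD, n = 3). let-7b-5p followed with 760, 1224 and 1504 CPM, or 1163 ± 376 (SD, n = 3). It was below miR-98-5p by 0.83 ± 0.19 and above let-7c-5p by 3.42 ± 0.42 on the log2 scale (SD, n = 3), in each library.

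let-7c-5p and let-7e-5p were lowest. let-7c-5p had 99.6, 96.5 and 120 CPM, from 1265, 1061 and 1398 counts. let-7e-5p had 47.3, 58.9 and 67.5 CPM, from 601, 647 and 788 counts. In every library let-7c-5p was above let-7e-5p, with a log2 difference of 0.87 ± 0.18 (SD, n = 3). Each differs from let-7a-5p at 1 base, and they stood at 0.925% ± 0.0576 and 0.506% ± 0.0429 of its counts (SD, n = 3). Whether misread let-7a-5p is part of these counts was not tested. From let-7f-5p to let-7e-5p the mean level spanned 732-fold. A sign-flip permutation of 3 libraries cannot give a p below 0.25, so no exact test of these orders was made.

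**Figure D1:**
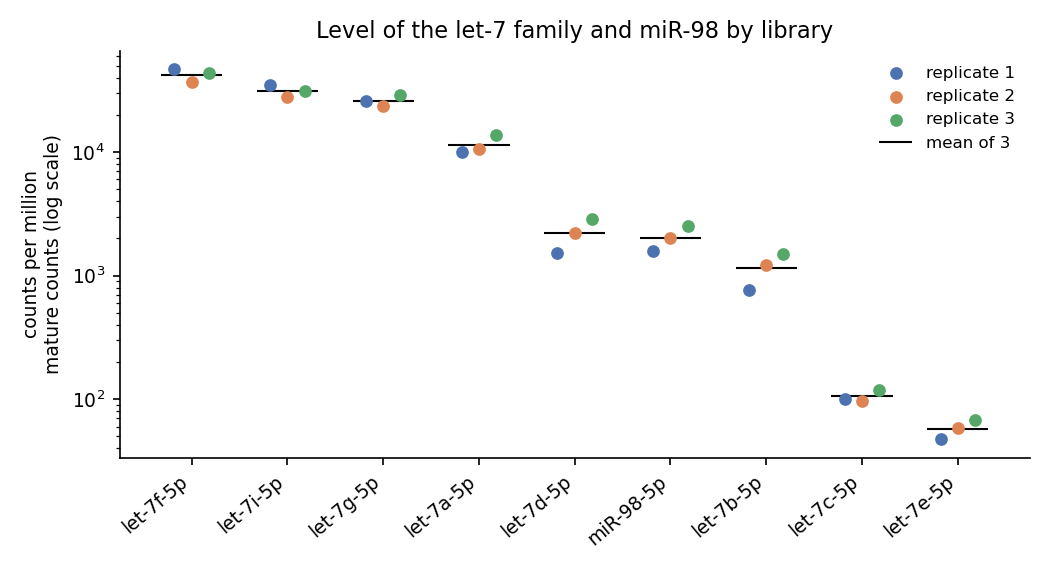
Level of each member in CPM (log axis) in replicates 1, 2 and 3 (points), with the mean of 3 as a bar. let-7f-5p, let-7i-5p and let-7g-5p lie between 23717 and 46764, let-7c-5p and let-7e-5p at or below 120, and the ranges of let-7d-5p and miR-98-5p overlap.

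The make-up of the family differed between libraries. From replicate 1 to replicates 2 and 3, the share of the family's 5p counts held by let-7f-5p was 38.4%, 35.0% and 35.2%, and that of let-7i-5p was 28.9%, 26.9% and 25.0%. let-7a-5p held 8.27%, 10.2% and 11.0% of the family. The members with a share of a few percent differed more, with 1.25%, 2.11% and 2.32% for let-7d-5p, 0.624%, 1.17% and 1.21% for let-7b-5p, and 1.29%, 1.91% and 2.01% for miR-98-5p. Replicate 1 was therefore the library with the most let-7f-5p and let-7i-5p and the least let-7b-5p, let-7d-5p and miR-98-5p in the family. let-7g-5p was the steadiest of the major members, at 21.2%, 22.7% and 23.2%.

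**Figure D2:**
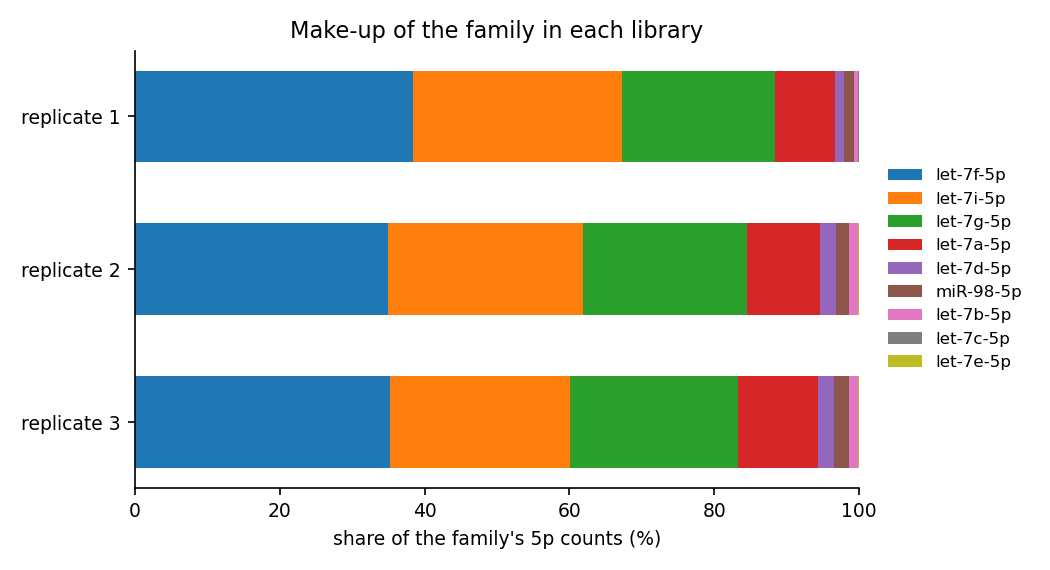
Share of each member in the family's 5p counts (x axis, percent, summing to 100 in each library) for replicates 1, 2 and 3. let-7f-5p, let-7i-5p and let-7g-5p fill 83.3% to 88.4% of each bar, most in replicate 1.

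How far members moved between libraries depended on the scale. On CPM, let-7f-5p and let-7i-5p were lower in replicate 3 than in replicate 1, by log2 values of -0.10 and -0.18, while let-7b-5p and let-7d-5p were higher by 0.99 and 0.92 and miR-98-5p by 0.67. In all, 7 of 9 members were higher in replicate 3 than in replicate 1, beside 74.8% of 163 abundant miRNAs (1000 counts or more in all 3 libraries). The median change over all miRNAs with counts in every library was then subtracted. By construction this places as many of those miRNAs below 0 as above. Relative to this median, 6 of 9 members were lower in replicate 3 than in replicate 1, a count near that even split. let-7i-5p was at -0.75, let-7f-5p at -0.67 and let-7g-5p at -0.42. let-7b-5p at 0.41, let-7d-5p at 0.34 and miR-98-5p at 0.09 were higher on that scale too. In replicate 2 against replicate 1, 5 of 9 members were higher on CPM, beside 119 of the 163 abundant miRNAs. Relative to the median change for that pair of libraries, only 2 of 9 were higher, let-7b-5p at 0.21 and let-7d-5p at 0.05. let-7f-5p was at -0.83, let-7i-5p at -0.80 and let-7g-5p at -0.60. From replicate 2 to replicate 3, all 9 members were higher on CPM, by 0.14 for let-7i-5p to 0.39 for let-7d-5p, beside 72.4% of the 163 abundant miRNAs. With a single library on each side, these differences between cultures have no test.

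The coefficient of variation over 3 libraries showed the same dependence. On CPM it ran from 9.68% for let-7g-5p to 32.3% for let-7b-5p, with a median over the 9 members of 16.7%, beside 29.1% over the 163 abundant miRNAs, which include 8 of the 9. Scaled by the median of ratios, the median of the members was 14.6% beside 21.7%. The members changed places, however. let-7f-5p went from 12.2% to 32.0%, let-7i-5p from 11.2% to 33.0% and let-7g-5p from 9.68% to 21.7%. miR-98-5p went from 22.9% to 7.97% and let-7e-5p from 17.4% to 5.56%. On this scale let-7f-5p and let-7i-5p were above the median of the abundant miRNAs, and let-7g-5p was level with it. The lower median of the members came from the others, which were all below. Single libraries also set some of the CPM values. Without replicate 1 the coefficient was 14.5% for let-7b-5p, 18.8% for let-7d-5p, 9.62% for let-7e-5p and 6.93% for let-7i-5p. It was 4.90% for let-7f-5p without replicate 2, and without replicate 3 it was 3.83% for let-7a-5p, 2.25% for let-7c-5p and 5.99% for let-7g-5p. Leaving out a library also raised some values, by less than a factor of 1.5. Without replicate 2 the coefficient was 46.5% for let-7b-5p, 43.5% for let-7d-5p and 32.1% for miR-98-5p. Which members looked steady thus depended on the scale and on the libraries used.

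**Figure D3:**
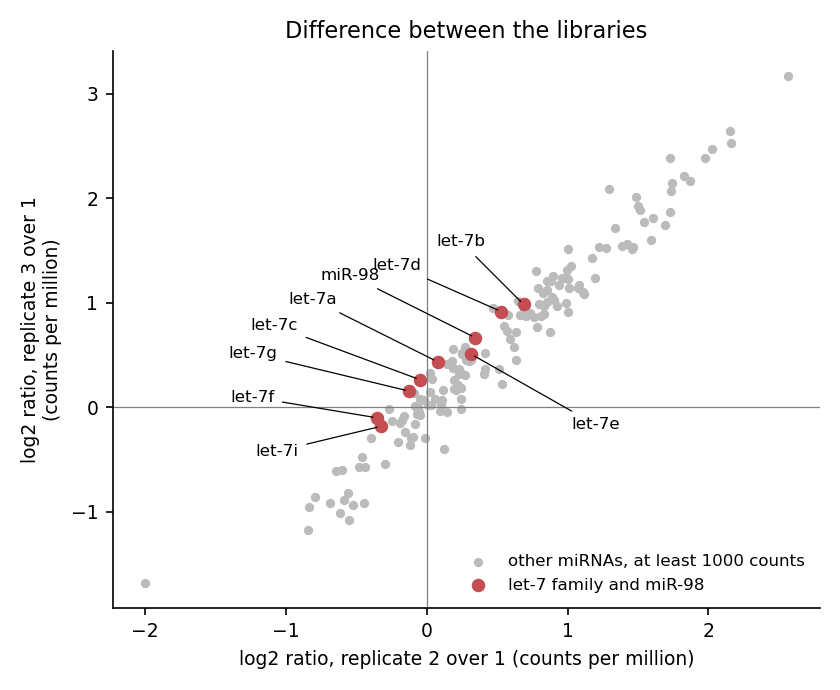
Log2 ratio of CPM in replicate 2 over 1 (x axis) and replicate 3 over 1 (y axis) for the 9 members (red) and the other abundant miRNAs (grey, 1000 counts or more in all 3 libraries). let-7f and let-7i lie below 0 on both axes, and let-7b and let-7d are the highest members on both, up to 0.99 on the y axis, within the cloud of other miRNAs.

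Each hairpin can yield a 5p and a 3p strand, of which 1 is usually kept by Argonaute. Both strands were listed for 8 members, and the 3p strands made up 1.06%, 1.23% and 1.20% of the reads of both strands of the family in replicates 1, 2 and 3. In edgeR's quasi-likelihood test with the library as a block, 8 of 8 pairs were called toward 5p, at an adjusted p under 0.05 and a log2 ratio of at least 1. Over all 209 pairs tested, 41.1% were called toward 5p, and the median log2 ratio was -0.33 against 6.10 over the 8 pairs of the family. let-7c-3p and let-7a-2-3p had no row, so let-7c was not tested and the ratio of let-7a lacks the 3p strand of 1 of its 3 hairpins. The counts of the let-7c and let-7a-2 hairpins exceeded those of their 5p rows by at most 1 in any library.

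The size of the preference ranged widely. The strongest and weakest pairs are shown by their 3p strands (RefSeq), with bases 2 to 8 in capitals, beside let-7a-3p. These 4 differ from each other in those bases, while over the 8 3p strands with a sequence there were 5 different seeds, and let-7a-3p, let-7b-3p, let-7f-1-3p and miR-98-3p shared 1.
let-7g-3p: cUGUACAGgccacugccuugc
let-7i-3p: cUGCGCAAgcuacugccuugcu
let-7a-3p: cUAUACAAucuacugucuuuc
let-7d-3p: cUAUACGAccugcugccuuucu

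let-7g-3p had 44, 59 and 51 counts where let-7g-5p had 327697, 260696 and 335810. This was the highest ratio toward 5p of all 209 pairs, and it rests on few 3p reads. Its log2 was 12.55 ± 0.33 (SE derived from the edgeR F statistic, adjusted p = 5.97e-06). let-7i followed within the family, with 540, 736 and 709 counts of 3p and a log2 ratio of 9.13 ± 0.33 (adjusted p = 8.57e-06, edgeR). let-7f, with the 3p strands of both its hairpins summed, had 5p above 3p by 252-fold, 210-fold and 254-fold in replicates 1, 2 and 3. miR-98 had ratios of 89.6, 88.6 and 92.6, the closest agreement between libraries in the family.

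At the other end, let-7d-3p was the most abundant 3p strand of the family. It had 6676, 6534 and 8346 counts, or 612 ± 95.4 CPM (SD, n = 3), and ranked 94 of 783 miRNAs. let-7d-5p exceeded it by 2.91-fold, 3.71-fold and 4.04-fold, a log2 ratio of 1.82 ± 0.21 (SE derived from the edgeR F statistic, adjusted p = 0.000524). let-7a had ratios of 19.8, 25.2 and 27.1, so the ranges of let-7d and let-7a over the libraries did not overlap. let-7d was also the member whose 5p strand begins with A. With 1 such member, whether this bears on its ratio was not tested. let-7b had ratios of 32.5, 65.6 and 66.6, and let-7e of 37.6, 34.1 and 43.8 with only 16, 19 and 18 counts of its 3p strand. In replicate 1 the ratios of let-7a, let-7b and let-7d were the lowest of the 3 libraries, and those of let-7g and let-7i the highest.

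**Figure D4:**
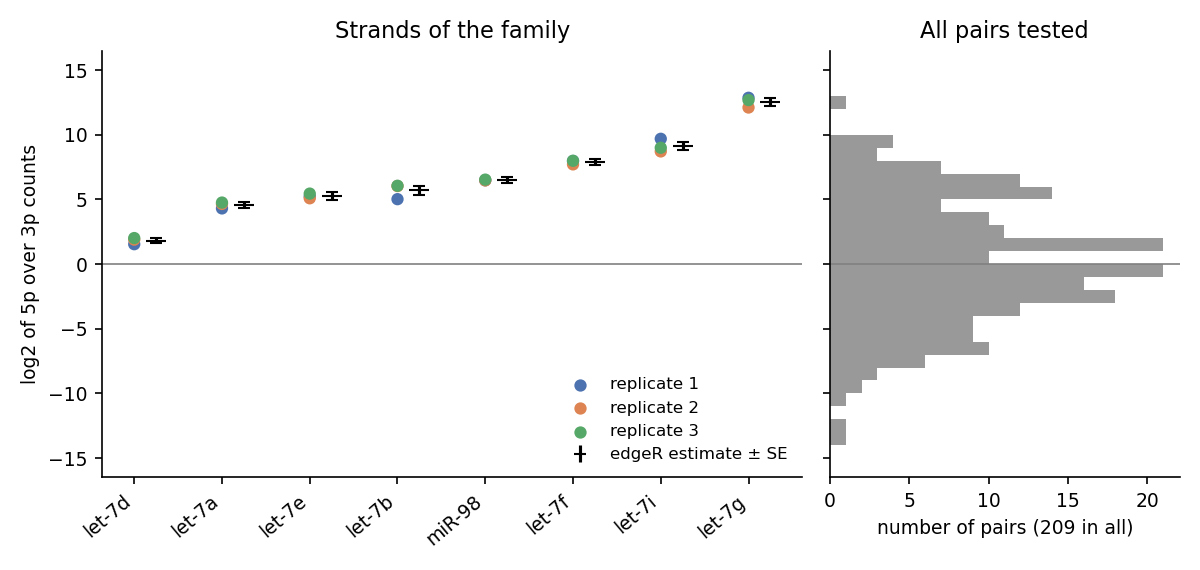
Left, log2 of 5p over 3p counts for the 8 members with both strands listed, in each library (points) and as the edgeR estimate ± SE derived from its F statistic (bars). Right, the number of pairs at each edgeR log2 ratio among all 209 tested, where the family's 8 pairs, from 1.82 for let-7d to 12.55 for let-7g, all lie above 0.

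The 12 hairpins lie at 8 places in the genome (RefSeq, GRCh38.p14, with host genes on the same strand from GENCODE release 29). MIRLET7A1 (chromosome 9, 94175957 to 94176036, plus strand), MIRLET7F1 (94176347 to 94176433) and MIRLET7D (94178834 to 94178920) follow each other within an intron of the lincRNA AL158152.2. MIRLET7A3 (chromosome 22, 46112749 to 46112822, plus strand) and MIRLET7B (46113686 to 46113768) lie 863 bases apart and overlap an exon of MIRLET7BHG. MIRLET7F2 (chromosome X, 53557192 to 53557274, minus strand) and MIR98 (53556223 to 53556341) lie 850 bases apart in an intron of HUWE1, a ubiquitin ligase gene. MIRLET7G (chromosome 3, 52268278 to 52268361, minus strand) lies in an intron of WDR82, and MIRLET7I (chromosome 12, 62603686 to 62603769, plus strand) in an intron of the lincRNA AC048341.1. MIRLET7A2 (chromosome 11, 122146522 to 122146593, minus strand) is in an intron of MIR100HG, MIRLET7C (chromosome 21, 16539828 to 16539911, plus strand) in an intron of MIR99AHG, and MIRLET7E (chromosome 19, 51692786 to 51692864, plus strand) in an intron of SPACA6.

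Mature reads did not tell the copies of let-7a-5p apart. Its 3 rows held from 33.10% to 33.55% of its counts, and the Wilson 95% interval held an equal share of 33.3% for 9 of 9 row and library values. The rows had unequal counts in every library (42866, 42392 and 42616 in replicate 1, for let-7a-3, let-7a-1 and let-7a-2). Rows were set to hairpins by their order in the tables, and no row exceeded its hairpin's count in any library. For let-7a this check could not settle the order, since the rows of let-7a-1 and let-7a-2 fitted all 3 hairpins and that of let-7a-3 fitted 2. The row of let-7f-2 fitted only its own hairpin. The 2 rows of let-7f-5p were close to equal too, with that of let-7f-2 at 50.35%, 50.43% and 50.33% in replicates 1, 2 and 3. Here 0 of 6 intervals held 50%, but the 2 rows of a library add up to the whole, so their intervals mirror each other. let-7f-2 was slightly above 50% in 3 of 3 libraries, the lowest bound being 50.20%. The intervals take reads as independent, while counts include PCR copies. The output of the single copies of let-7a and let-7f cannot be told apart from how shared reads were divided.

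The 3p strands differ between the copies of let-7f. let-7f-1-3p had 1202, 898 and 927 counts and let-7f-2-3p had 1156, 1023 and 1078, so the strand from chromosome 9 was the higher in replicate 1 and the strand from chromosome X in the others. Their means of 85.2 ± 8.26 and 92.1 ± 1.01 CPM (SD, n = 3) differed by less than the larger SD. The 3p strand of let-7a-1 and let-7a-3 is the same sequence, let-7a-3p, with 509, 422 and 503 CPM.

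Hairpins of 1 cluster can come from a shared transcript, and in these data members of the clusters on chromosomes 9 and X differed in level. On chromosome 9, let-7d-3p was above let-7f-1-3p, with 526 to 714 against 79.4 to 94.7 CPM. Among the 5p strands the order was the opposite, with let-7f-5p, from this and the X-linked locus, far above let-7d-5p. On chromosome X, let-7f-2-3p was above miR-98-3p, with 91.1 to 93.1 against 17.6 to 27.0 CPM. On chromosome 22, the let-7b hairpin had 14408 ± 4563 FPKM (per kilobase of hairpin) and let-7a-3, with its part of the shared let-7a reads, 55509 ± 8469 FPKM (SD, n = 3). That part was close to an equal share of 33.3%, so these values cannot show whether the hairpins of this cluster differed.

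The loci of let-7c, let-7e and let-7a-2 also hold hairpins of the miR-99, miR-100 and miR-125 families. No values are given here for miR-125b. miR-99a-5p, beside let-7c, had 30, 17 and 9 counts. miR-99b-5p, beside let-7e, had 3346, 2598 and 2900 counts and miR-125a-5p, of the same cluster, 689, 1785 and 2313. let-7e-5p was thus below miR-99b-5p in 3 of 3 libraries, and below miR-125a-5p in 3 of 3. miR-100-5p, beside let-7a-2, had 320, 204 and 220 counts, against 42616, 38985 and 53254 in the let-7a-5p row set to that hairpin, which holds shared reads.

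LIN28 is known to contact the bases GGAG in the loop of let-7 precursors. The letters GGAG, and GAAG as a variant, were searched on the transcribed strand from the end of the 5p strand to the end of each hairpin. GGAG was found in 9 of 12 hairpins of the family, and GGAG or GAAG in 11. Of the 798 human hairpins with a placed 5p strand, 18.9% held GGAG and 31.0% held GGAG or GAAG in the same window. let-7b and miR-98 held GAAG only, and let-7a-3 held neither. The 9 hairpins with GGAG included those of the 3 most abundant members, let-7f (whose 2 copies both hold it), let-7i and let-7g, and those of the 2 least abundant, let-7c and let-7e. LIN28 was not measured in these libraries.

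Reads that fell in a hairpin but in neither listed strand were few. For let-7a-1 they were 531, 605 and 501 counts, or 1.16% of its hairpin counts on average, the highest share of the 12 hairpins. This value rests on the let-7a-5p row set to that hairpin by order. let-7f-2 had 491, 442 and 499 such counts and let-7i 340, 255 and 195. let-7f-1, whose hairpin count was close to that of let-7f-2, had 2, 2 and 3. For let-7c the hairpin count was equal to that of the 5p strand in 3 of 3 libraries, and for let-7a-2 it was above it by 1, 1 and 0 counts. These 2 hairpins are those whose 3p strand had no row.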

How the data were processed

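Small RNA libraries of 3 cultures were made by the study with the NEB Illumina protocol and sequenced on an Illumina HiSeq 2000. The authors aligned the reads, counted them over miRBase release 21 and deposited read counts and FPKM per mature strand and per hairpin. Novoalign 2.08.03 and the builds hg19 and mm10 are named in the submitters' processing notes, without a role, and the handling of reads with several positions is not given in the sources used here. Every mature row reached 10 counts in at least 1 library, so an unlisted strand was given no level. Counts include PCR copies.

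Rows of 1 name were summed and divided by the total of mature counts, per 1000000. 3p rows with a copy number were summed into their member. Strands were compared over all 209 pairs by edgeR 4.0.16 (R 4.3.3, quasi-likelihood) on counts, with the library as a block and Benjamini-Hochberg adjustment. This test gives no SE, so the SE of a log2 ratio was taken as its size over the square root of the F statistic. Adapters ligate with sequence preference, which affects ratios between strands and members. The p-values and derived SEs rest only on the spread between these cultures, with the spread of each pair drawn toward that of all pairs. They therefore do not measure a pair's own spread over 3 cultures. The SE was 0.24 for miR-98, whose ratios agreed most closely, and 0.21 for let-7d. DESeq2 1.42.0 and limma 3.58.1 (log2 of FPKM plus 1 or 10) were alternatives. Other values came from pandas 2.3.3, scipy 1.17.1 and numpy 2.4.6 under Python 3.11.15, and figures from matplotlib 3.10.9. Named miRNAs were the members, their 3p strands and hairpins, miRNAs of the same seed or hairpin cluster, and miR-21-5p. The 3 markers named by value, the members named for other seeds and miR-30a to miR-30e are outside this rule and were chosen after their values were seen. A search for miRNAs of like pattern was not made, since there were 3 libraries of 1 group. The members, lists and tests were chosen with earlier results of these data known.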

Additional observations from a re-analysis of the deposited data

How the results depend on the processing

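Of 357 values recomputed under an alternative, 309 kept their call or moved by less than the spread that applied, 47 moved by more and 1 reversed, which was the order of let-7f-5p and let-7i-5p (log2 0.43, and -0.57 when rows were averaged). Values without a test were set against the SD between libraries, and coefficients of variation and counts of calls against a factor of 1.5. Part of the 309 could not have come out otherwise. Leaving out 1 of 3 replicates always moves a mean by less than the SD. Shares and orders within the family are the same on FPKM as on counts, because all members are of 1 length. The family's share of counts, 11.7%, was 16.6% without miR-21-5p in the denominator. By library it was then 19.8%, 14.3% and 15.6% (replicates 1 to 3), so replicate 1 and not replicate 3 was the highest. Its coefficient of variation was 17.4%, against 9.07% with miR-21-5p. The share was 9.78% when the rows of a name were averaged in place of summed. Averaging also raised the joint share of let-7f, let-7g and let-7i in the family from 85.4% to 89.3%, and by construction lowered let-7a-5p and let-7f-5p, so that let-7f-5p, at 23497 CPM, came below let-7g-5p, at 28978, and let-7i-5p, at 34866. The share of let-7f-2 among its copies was 50.43% in the hairpin table, against 50.37%. There let-7a-1 was at 34.15% against 33.22%, let-7a-2 at 31.88% against 33.38% and let-7a-3 at 33.96% against 33.40%. Hairpin counts include 3p strands, and let-7a-2 had no 3p row.

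With 1 replicate left out, the family's share ran from 11.3% to 12.3%, the joint share of let-7f, let-7g and let-7i from 83.9% to 86.5%, the median coefficient of variation of the members from 14.5% to 21.2%, and the share of let-7f-2 from 50.34% to 50.39%. Pairs called toward 5p ran from 74 to 91, and 8 pairs of the family were called each time. Without the replicate block, 89 pairs were called toward 5p, 8 of them of the family. With limma, DESeq2, other library sizes or pairs by exact name, 80 to 88 were called, and 8 of the family except for exact names, which leave out let-7f and gave 7. Leaving out the filter removed or added no pair, so it says nothing about stability. Both strands share the size of their library, so other library sizes could hardly change the ratios. Each gave 86 calls toward 5p, as in the main test, and says little about stability too. Depth limits let-7e-3p and let-7g-3p most, at 16 to 59 counts.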
